A study of Rattus norvegicus with 24 samples.

Results

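Collagens, elastic fibre proteins and other genes of lung fibrosis were followed in the lungs of rats exposed to cigarette smoke, Iraqi sand, silica and their combinations. The group was set by gene symbol and held 41 genes. Each gene was represented by its brightest probe set over all arrays among those annotated with exactly 1 symbol, and 38 of the 41 were measured among 14217 genes in all. Col4a3, Tnxb and Thbs1 had no such probe set and were not analysed here. By role the 38 genes comprised 5 fibrillar collagens, 5 beaded-filament and fibril-associated collagens, 9 basement membrane genes, 8 genes of the elastic fibre and of crosslinking, 4 proteoglycans, 5 adhesive and matricellular proteins, and 2 signals that drive fibrosis.

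Total RNA was taken from the right caudal lobe of the lung of male rats of the outbred Sprague-Dawley strain, and 24 animals, 4 in each of 6 groups, were each measured on 1 Affymetrix rat expression array. All rats were 17 weeks old and had a nose-only session followed by a whole-body chamber. The air group had air in both. The Iraqi sand group and the silica group had nose-only air and then Iraqi sand or manufactured silica sand in the chamber. The smoke group had nose-only cigarette smoke and chamber air, and 2 further groups had smoke with Iraqi sand and smoke with silica. Smoke had a target of 0.48 mg/L (wet total particulate matter), given 3 hours daily, 5 days weekly, and the labels give its length as both 5 and 6 weeks. The particle target was 1 mg/m3, given 18 hours daily, 7 days weekly, during the final 2 weeks. The title of the series names synergism of the sand and the smoke. A whole lobe holds many cell types, so that fewer cells of a type and less RNA per cell cannot be told apart.

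Fibrillar collagens are secreted by fibroblasts, assembled into fibrils, and joined by lysyl oxidases, the same enzymes that join elastin laid on fibrillin microfibrils. Small leucine-rich proteoglycans such as decorin and lumican bind these fibrils and set their diameter and spacing. In the lung this scaffold gives strength and elastic recoil, TGF-beta signalling is the best known driver of its excess deposition, and inhaled crystalline silica is a textbook cause of fibrosis, whereas smoke is linked to elastic fibre breakdown.

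Of the 38 genes 26 had an entry in the RefSeq promoter table of assembly GRCr8. The sequences printed lie upstream of Col4a1, Col4a2 and Spp1, and their relation to the levels was not tested. Col4a1 and Col4a2 encode the chains of the common form of collagen IV and start back to back, so that 1 short stretch of 76 bases between their annotated starts, chr16:84885521-84885596 on the plus strand, is the upstream sequence of both, and their levels are set side by side. Spp1, which encodes osteopontin, had the largest difference of the 38 genes, and the 250 bases before its start, chr14:5619805-5620054 on the minus strand, are shown. The motifs searched, on both strands, were the AP-1 site TGANTCA, the TATA box TATAAA, the CCAAT box CCAAT and the GC box GGGCGG, and capitals mark the matches.
Col4a2 to Col4a1 stretch: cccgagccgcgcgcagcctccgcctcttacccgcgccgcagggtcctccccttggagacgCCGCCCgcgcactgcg
Spp1 upstream: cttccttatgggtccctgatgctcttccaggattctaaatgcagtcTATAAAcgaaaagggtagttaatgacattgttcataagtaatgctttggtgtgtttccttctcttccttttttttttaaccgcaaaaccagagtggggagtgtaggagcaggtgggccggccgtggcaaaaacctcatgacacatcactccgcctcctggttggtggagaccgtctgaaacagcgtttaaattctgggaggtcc

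The stretch between the collagen IV genes held 1 GC box, at base 61 and read on the minus strand, as did 18.1% of 33469 upstream windows of the same length. The Spp1 window held 1 TATAAA, at base 47 of 250, where the last base adjoins the annotated start, as did 12.9% of the windows of its length. Its other 3 motifs were not found in these letters, and the shares of windows holding them were 6.34% for the AP-1 site, 34.0% for CCAAT and 30.5% for the GC box. These matches describe the letters alone.

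The labelled tissue was borne out by its markers, since the type 2 cell surfactant gene Sftpc lay between 14.79 and 14.95 and the type 1 cell gene Ager between 12.95 and 13.47 on the log2 scale in the 24 rats. Heart muscle genes stood far above group mates in rat 104 of the air group and rat 302 of the Iraqi sand group, where the mean of 9 cardiac markers was 3.21 and 3.34 higher. Genes of airway secretory and basal cells were also high there, by 1.75 and 2.18 in the mean of 8 markers, in rat 203 of the smoke group by 2.09 and in rat 604 of the smoke and silica group by 1.97. Smaller differences were seen in further rats. They included 1.22, 0.93, 0.96 and 0.95 for the cardiac mean in rats 203, 204, 404 and 602. For the airway mean they included 1.24 in rat 204 and 1.09 in rat 405. Levels are log2 values as deposited, differences are log2 differences with their standard errors, and a gene was called at a Benjamini-Hochberg adjusted p under 0.05 from limma over all 14217 genes. As levels of different probe sets cannot be compared, each gene is compared only with itself. Of the 20 genes with several probe sets, the sets differed in sign for 5 with smoke averaged over particles, for 8 in smoke alone and for 3 in smoke with silica against air, so counts of higher and lower values rest on the probe set chosen.

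**Figure D1:**
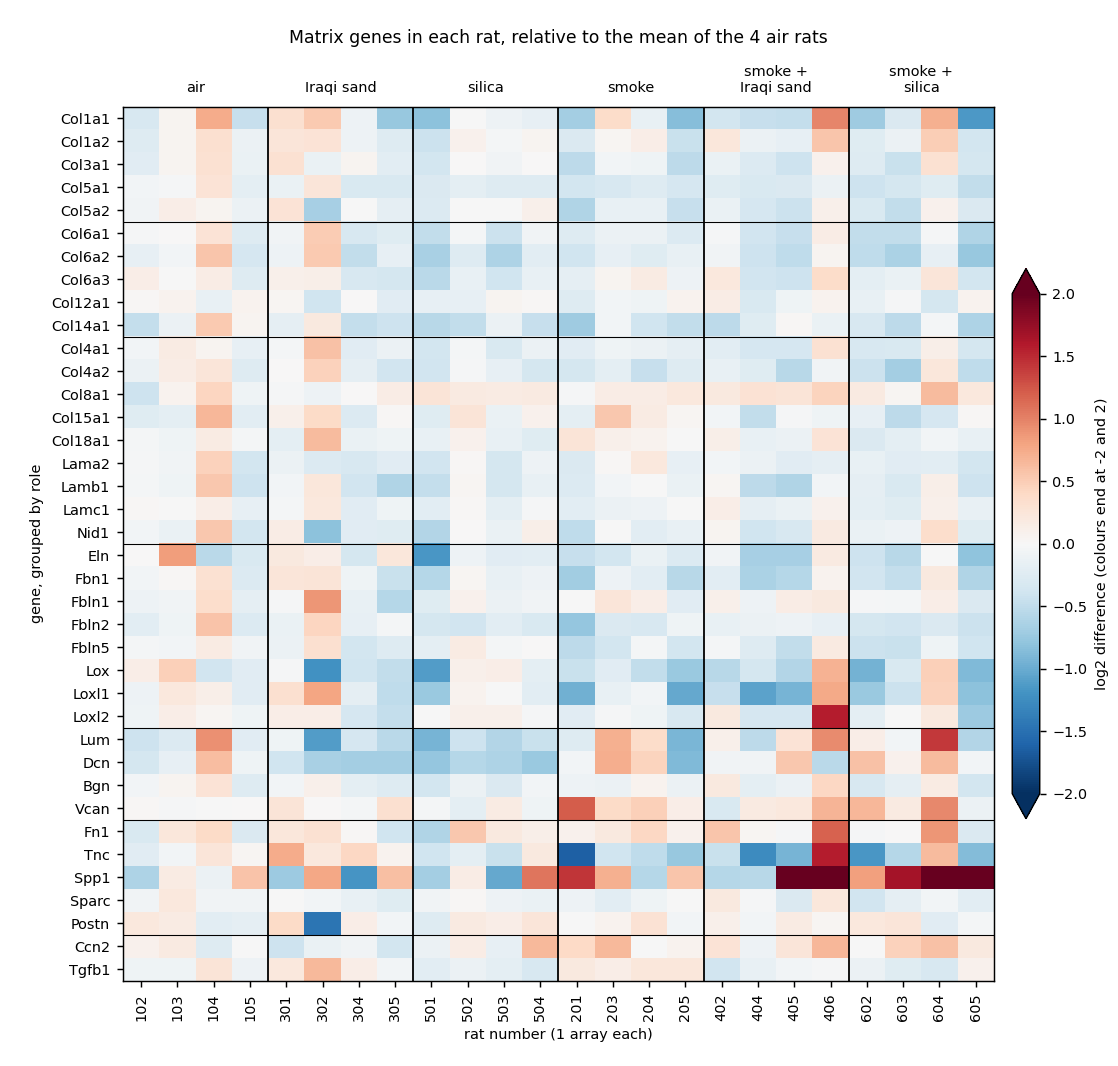
Heat map of 38 matrix genes (rows, grouped by role and divided by lines) in 24 rats (columns, 6 groups of 4), as the log2 difference from the mean of the 4 air rats, with colours ending at 2 in either direction. Rats 104, 302, 406 and 604 show many red cells in their groups, and Spp1 stands at 10.30 and above in rats 405, 406 and 604.

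Few of the 38 genes passed the test. Decorin (Dcn) was the only one of the 38 genes that rose with smoke when the 12 smoke rats were set against the 12 others, 1 of 38 called against 6.39% of all genes (2.69% higher and 3.7% lower), and 0 fell. Col5a1, a minor fibrillar collagen that starts and limits the growth of fibrils, was the only one that changed between smoke with silica and air, where it fell, 1 of 38 called against 3.77% of all genes (2.19% higher and 1.58% lower). As 1 of 38 is 2.63%, neither share exceeds that of all genes called in either direction. By direction, the share lower in smoke with silica exceeds the 1.58% of all genes, on 1 gene. Without adjustment 13 of 38 had a p under 0.05 in the smoke comparison against 24.5% of all genes, with 6 higher and 7 lower, and 7 of 38 in the smoke and silica comparison against 18.5%, with 1 higher and 6 lower. The median difference of the 38 genes was -0.04 with smoke and -0.19 with smoke and silica together, beside -0.02 and -0.02 over all genes.

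Limma called 0 of the 38 genes in the remaining 13 comparisons. For smoke alone against air this stood beside 0.893% of all genes called, and 6 of 38 had an unadjusted p under 0.05 against 9.95% of all genes. For smoke within Iraqi sand it stood beside 1.29%, with 3 of 38 unadjusted against 20.5%, and for smoke within silica beside 0.00703%, with 4 against 8.17%. For Iraqi sand against air it stood beside 0.0281%, with 1 of 38 unadjusted against 10.2%, and for silica against air beside 0.141%, with 4 against 5.0%. The particles without smoke thus gave few calls among genes of any kind. Within smoke, Iraqi sand had 0.0141% of all genes called, with 1 of 38 unadjusted against 3.83%, and silica 0.0141%, with 1 against 8.29%. Smoke with Iraqi sand against air had 0.978% of all genes called, with 2 of 38 unadjusted against 10.9%. The synergism in the series title concerns smoke with Iraqi sand. Whether smoke and a particle together differ from the sum of their log2 differences was tested by 2 interactions, for Iraqi sand and for silica. They gave 0 of 38 each beside 0.00703% of all genes for Iraqi sand and 0% for silica, with 1 of 38 unadjusted against 8.84% and 1 against 2.24%. The averaged effects of Iraqi sand and of silica and their contrast gave 0 of 38 beside 0%, 0.345% and 0.12% of all genes, with 0, 2 and 3 of 38 unadjusted against 5.22%, 11.7% and 12.2%. A test for any difference among the 6 groups called 0 of 38 beside 2.67% of all genes, with 4 of 38 unadjusted against 17.8%.

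Genes whose 4 and 4 rats did not overlap were also counted. In smoke alone against air, 1 of the 38 genes lay higher in every rat against 4.86% of all genes, and 3 lay lower against 5.08%. In smoke within Iraqi sand 1 lay higher against 2.06% and 0 lower against 6.95%, and in smoke within silica 1 lay higher against 2.8% and 0 lower against 4.35%. Smoke with Iraqi sand against air gave 0 higher against 5.59% and 0 lower against 7.17%, and smoke with silica 1 higher against 7.64% and 3 lower against 10.0%. As 1 of 38 is 2.63% and 3 of 38 is 7.89%, the share was above that of all genes for smoke alone downward and for smoke within Iraqi sand upward, and below it in the other counts with smoke given so far. Without smoke, Iraqi sand gave 0 higher against 3.4% and 1 lower against 0.928%, and silica 0 higher against 3.24% and 3 lower against 2.95%, so that both downward shares were above those of all genes. Within smoke, Iraqi sand gave 0 higher against 2.07% and 1 lower against 3.41%, and silica 0 higher against 4.29% and 2 lower against 5.54%. The genes behind these counts are named with their roles in the paragraphs that follow.

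**Figure D2:**
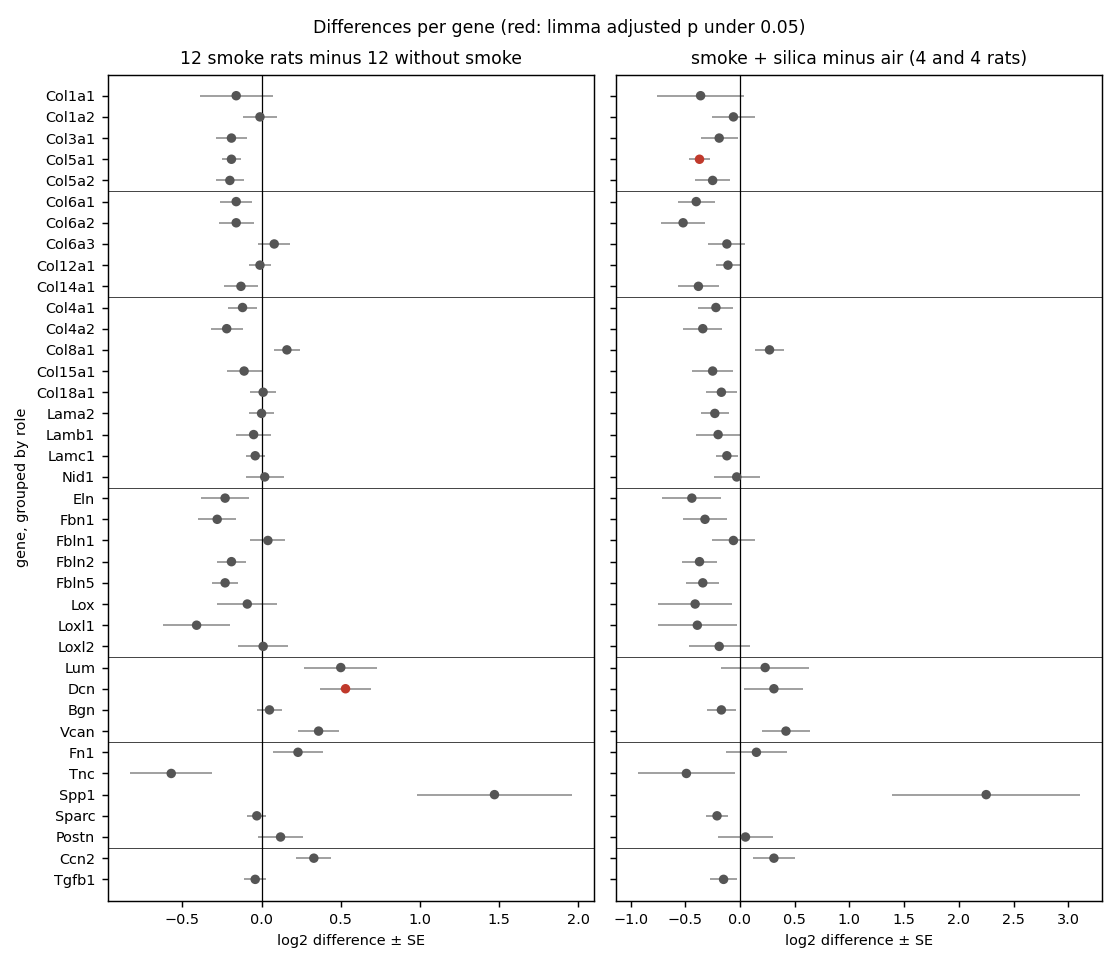
Log2 difference (point) with its standard error (line) for each of the 38 genes, for the 12 smoke rats minus the 12 rats without smoke (left) and for smoke and silica minus air, 4 rats each (right), with red for a limma adjusted p under 0.05. Dcn alone is red on the left at 0.53 and Col5a1 alone on the right at -0.37, while Spp1 has the widest error lines.

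Decorin was the 1 of 4 proteoglycans that passed. Dcn, whose product coats collagen fibrils and binds TGF-beta, stood at 10.54, 10.72, 11.50 and 10.80 in the 4 air rats, at 10.49, 10.24, 10.21 and 10.21 with Iraqi sand, and at 10.12, 10.32, 10.27 and 10.15 with silica. With smoke it stood at 10.84, 11.61, 11.33 and 10.00, with smoke and Iraqi sand at 10.82, 10.82, 11.43 and 10.35, and with smoke and silica at 11.47, 10.97, 11.52 and 10.83. All 8 rats given a particle without smoke lay below all 4 air rats, all 4 rats given smoke and silica lay above all 4 given silica alone, and the other smoke groups overlapped with their counterparts without smoke. Over the 12 and 12 rats the difference was 0.53 ± 0.16, or 1.45-fold, with a 95% confidence interval from 0.21 to 0.86 and a limma adjusted p of 0.0457. Its parts were 0.05 ± 0.27 in air, 0.56 ± 0.27 in Iraqi sand and 0.98 ± 0.27 in silica (limma adjusted p = 0.992, 0.245 and 0.212). The differences between these parts were 0.51 ± 0.39 and 0.93 ± 0.39 and did not pass (limma adjusted p = 0.686 and 1.0). Beside these, levels with particles alone stood below air, at -0.60 ± 0.27 for Iraqi sand and -0.68 ± 0.27 for silica against air (limma adjusted p = 0.462 and 0.894), and with smoke and silica they stood 0.31 ± 0.27 above air (limma adjusted p = 0.593).

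The decorin call lay close to the threshold. It was kept in 6 of 24 fits that left out 1 rat, those without rats 104, 301, 302, 205, 406 or 605, and ended without any of the other 18, with adjusted p-values from 0.00517 to 0.0845 and differences from 0.46 to 0.64. It was also kept without rats 104, 302, 406 and 604 together, at 0.62 (adjusted p = 0.0267), and ended on the 19 arrays with an RNA integrity number, at 0.59 (adjusted p = 0.0817). The mean of 8 airway secretory and basal markers was 7.54, 7.51 and 7.34 in air, Iraqi sand and silica. With smoke added it was 8.69, 8.36 and 8.33. Rats 104, 203, 405 and 604 were the highest of their groups for both this mean and Dcn. Rats 302 and 503 were the highest for the mean but not for Dcn. The part of these cells in the Dcn levels was not tested.

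Lumican (Lum), the neighbour of Dcn on the chromosome and likewise a regulator of collagen fibrils, stood at 8.25, 8.38, 9.58 and 8.43 in air, at 8.58, 7.55, 8.32 and 8.12 with Iraqi sand and at 7.73, 8.25, 8.07 and 8.22 with silica. In smoke it stood at 8.40, 9.37, 9.02 and 7.74, in smoke with Iraqi sand at 8.76, 8.13, 8.94 and 9.61, and in smoke with silica at 8.79, 8.60, 10.07 and 8.07. The silica rats without smoke lay below every air rat, the closest pair being equal after rounding, and the smoke groups overlapped with their counterparts. The smoke difference was 0.50 ± 0.23 (limma adjusted p = 0.182), made of -0.03 in air, 0.72 in Iraqi sand and 0.82 in silica.

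Versican (Vcan), a large hyaluronan-binding proteoglycan of early and inflamed matrix, was tight in the air rats, at 6.18, 6.13, 6.14 and 6.17. All 4 smoke rats lay above them, at 7.36, 6.53, 6.63 and 6.28, a difference of 0.54 ± 0.22 (limma adjusted p = 0.366). In smoke with silica it stood at 6.82, 6.34, 7.12 and 6.04 and in smoke with Iraqi sand at 5.85, 6.34, 6.36 and 6.83, so that both overlapped with air. The averaged difference was 0.36 ± 0.13 (limma adjusted p = 0.092), and its 5 probe sets did not share 1 sign. The only set of the opposite sign, at -0.08 ± 0.05, was the dimmest, with a mean level of 3.97 where the lowest value of all was 2.9. Biglycan (Bgn), the close relative of decorin, differed by 0.05 ± 0.08 with smoke and ranged from 10.16 to 10.93 over all rats. Of the 4 proteoglycans 4 were thus higher with smoke in value and 1 passed, and of the 4 all were lower with silica alone in value and 0 passed.

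**Figure D3:**
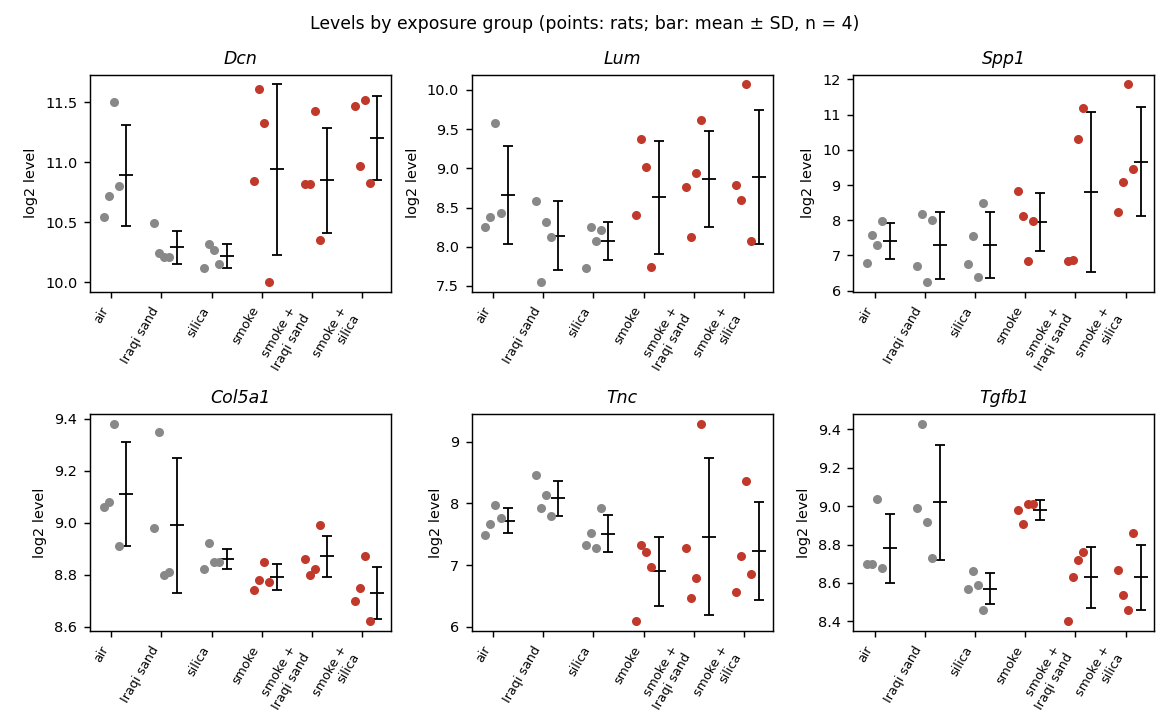
Log2 levels of Dcn, Lum, Spp1, Col5a1, Tnc and Tgfb1 in the 6 groups, with 1 point per rat (grey without smoke, red with smoke) and a bar for the mean ± SD of 4 rats. Dcn is at most 10.49 in the 8 rats given a particle without smoke, and in smoke with Iraqi sand Spp1 is high in rats 405 and 406 and Tnc in rat 406 alone.

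Fibrillar collagens were mostly lower in value with smoke. Of the 5, 5 were lower in the averaged smoke comparison, 5 in smoke alone, and 5 in smoke with silica against air, with medians of -0.19, -0.32 and -0.25, and 1 passed, in the last. The second probe set of Col1a2 had the opposite sign in the last, at 0.01 against -0.06. Col5a1 stood at 9.06, 9.08, 9.38 and 8.91 in air and at 8.70, 8.75, 8.87 and 8.62 in smoke with silica, so that the groups did not overlap. The difference was -0.37 ± 0.10, or 1.29-fold lower, with a 95% confidence interval from -0.59 to -0.16 (limma adjusted p = 0.0453). A second probe set of Col5a1 differed by -0.67 ± 0.23. In smoke alone Col5a1 stood at 8.74, 8.78, 8.85 and 8.77, again below every air rat, and differed by -0.32 ± 0.10 (limma adjusted p = 0.193). In smoke with Iraqi sand it stood at 8.86, 8.80, 8.82 and 8.99 and overlapped with air. Silica alone gave 8.82, 8.92, 8.85 and 8.85, so that levels without smoke were also lower with silica, by -0.24 ± 0.10 (limma adjusted p = 0.898), and smoke within silica differed by -0.13 ± 0.10 (limma adjusted p = 0.834). Iraqi sand alone gave 8.98, 9.35, 8.80 and 8.81, with rat 302 at the top.

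The Col5a1 call too lay close to the threshold. It was kept in 5 of 24 fits that left out 1 rat, those without rats 105, 302, 304, 305 or 406, and ended without any of the other 19, with adjusted p-values from 0.00448 to 0.172. Without rats 104, 302, 406 and 604 it was kept at -0.33 (adjusted p = 0.00644), and it ended on the 8 arrays of the groups compared (adjusted p = 0.0798) and at -0.27 on the 19 arrays with an RNA integrity number (adjusted p = 0.336).

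Type I collagen, the main protein of scar, was not called anywhere. Col1a1, its larger chain, stood at 9.57, 9.95, 10.64 and 9.43 in air, at 9.22, 10.27, 9.75 and 9.05 with smoke, at 9.53, 9.44, 9.42 and 10.88 with smoke and Iraqi sand, and at 9.18, 9.61, 10.61 and 8.75 with smoke and silica. Each group held 1 rat far above the others or a wide spread, and all 4 groups overlapped. The averaged smoke difference was -0.16 ± 0.23, with a 95% interval from -0.64 to 0.31, and in smoke with silica against air it was -0.36 ± 0.40 with an interval from -1.18 to 0.46. Col1a2, the partner chain, differed by -0.01 ± 0.11 with smoke, with an interval from -0.25 to 0.22. Col3a1, the collagen of extensible tissue, differed by -0.19 ± 0.10 (limma adjusted p = 0.224), and Col5a2 by -0.20 ± 0.09 (limma adjusted p = 0.195). In smoke alone Col5a2, like Col5a1 and Tnc, lay below every air rat.

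Collagen VI forms the beaded filaments that tie cells to the fibrils, and collagens XII and XIV sit on the fibril surface. Of these 5 genes 0 passed in any comparison. With smoke and silica all 5 were lower in value than in air, with a median of -0.38, by the brightest probe set of each. Col6a3 and Col12a1 each had another probe set of the opposite sign, at 0.06 and 0.16 against -0.12 and -0.11. Col6a2 had the largest of these differences, -0.52 ± 0.20 (limma adjusted p = 0.159), with levels of 9.10, 8.98, 9.45 and 8.86 against 9.45, 9.56, 10.17 and 9.28 in air, where the highest treated rat reached the lower air rats. Col6a1 differed by -0.40 ± 0.17 (limma adjusted p = 0.209) and Col14a1 by -0.38 ± 0.19 (limma adjusted p = 0.302). With silica alone all 5 were lower in value too, with a median of -0.32, and with smoke averaged over particles the median was -0.13.

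The basement membrane genes differed little. Of the 9 measured, 4 were higher and 5 lower in value with smoke, with a median of -0.04, and 0 passed. Centring the arrays turned the sign of Lama2, whose difference was 0.00, and of no other in this set. A second quantile normalization turned the signs of Lama2 and Col18a1. Col18a1 and Nid1 each had another probe set of the opposite sign, at -0.01 and -0.05 against 0.01 and 0.02. Col4a1, with 1 chain of collagen IV, ranged from 10.88 to 11.84 without smoke and from 10.90 to 11.56 with it, and Col4a2 from 9.91 to 10.75 and from 9.62 to 10.52. The smoke differences were -0.12 ± 0.09 for Col4a1 and -0.22 ± 0.10 for Col4a2 (limma adjusted p = 0.438 and 0.197), so that the genes that share the printed stretch had the same sign, and rat 302 was the highest for each. Col8a1, a short-chain collagen of vessel walls, was higher in value with smoke in air, in Iraqi sand and in silica. With smoke and Iraqi sand it stood at 7.21, 7.29, 7.27 and 7.45 against 6.98, 6.91, 7.02 and 7.15 with Iraqi sand alone, a difference of 0.29 ± 0.13 (limma adjusted p = 0.218), with no overlap. The laminin chains Lama2, Lamb1 and Lamc1 differed by 0.00, -0.05 and -0.04 with smoke and the linker nidogen (Nid1) by 0.02.

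Genes of the elastic fibre were mostly lower in value with smoke, and 0 of 8 passed. Of the 8, 7 were lower in smoke alone, with a median of -0.34, and all 8 in smoke with silica against air, with a median of -0.35, while smoke within Iraqi sand gave 3 higher and 5 lower. Fibulin-5 (Fbln5), which is needed to assemble elastic fibres, stood at 9.34, 9.32, 9.53 and 9.30 in air and at 8.95, 8.92, 9.28 and 8.97 in smoke with silica, with no overlap, and differed by -0.34 ± 0.15 (limma adjusted p = 0.211). Over the 12 and 12 rats it differed by -0.23 ± 0.08 (limma adjusted p = 0.098). Fibulin-2 (Fbln2) also had no overlap in that comparison, with 7.87, 7.84, 7.94 and 7.79 against 8.01, 8.14, 8.80 and 7.96, and differed by -0.37 ± 0.16 (limma adjusted p = 0.205). With Col5a1 these were the 3 genes lower in every smoke and silica rat than in every air rat. Markers of matrix-producing cells were mostly lower in value there too. Of 9 lung fibroblast markers 7 were lower in value with a median of -0.17, and Pdgfra passed at -0.69 (limma adjusted p = 0.0252) while Vim rose by 0.37 (limma adjusted p = 0.00196). Of 10 smooth muscle and myofibroblast markers 10 were lower in value with a median of -0.31, and limma called 0, with 3 at an unadjusted p under 0.05. The mean of the fibroblast list lay between 8.26 and 8.37 in smoke with silica and between 8.36 and 8.62 in air, and that of the muscle list between 8.75 and 9.44 and between 9.19 and 9.62. The part of these cells in the fibrillar, beaded-filament and elastic fibre values was not tested.

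Fibrillin-1 (Fbn1), the backbone of the microfibril, differed by -0.28 ± 0.12 with smoke (limma adjusted p = 0.142). Its 12 levels without smoke ran from 9.44 over a median of 9.94 to 10.31, and those with smoke from 9.31 over 9.57 to 10.21. Elastin itself (Eln) differed by -0.23 ± 0.15, with a 95% interval from -0.55 to 0.09, and its range without smoke, 8.25 to 10.24, enclosed that with smoke, 8.61 to 9.58. A second probe set of Eln had a mean level of 9.14, close to the 9.17 of the set used. It differed by -0.44 ± 0.18 with smoke averaged over particles (limma unadjusted p = 0.026). In smoke alone it differed by -0.80 ± 0.32, against -0.31 ± 0.27 for the set used. In smoke with silica against air these were -0.73 ± 0.32 and -0.44 ± 0.27. Among the crosslinking enzymes, Loxl1, which acts on elastin, differed by -0.41 ± 0.21 (limma adjusted p = 0.225), Lox by -0.09 ± 0.19 and Loxl2 by 0.01 ± 0.16. Loxl1 was low in most smoke rats, with a median of 9.23 against 9.78, and high in 2 of them, at 10.59 in rat 406 and 10.29 in rat 604. Without rats 104, 302, 406 and 604 the smoke comparison called 6 of the 38 genes against 7.42% of all genes, with Loxl1, Fbln5, Tnc, Col5a1 and Col5a2 lower and Dcn higher. These rats were chosen from the levels of the same genes, so that this count describes the remaining 20 rats and is no independent evidence.

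Among adhesive and matricellular proteins, osteopontin (Spp1), a secreted phosphoprotein made by macrophages and other cells, had the largest differences and the largest spread. It stood at 6.79, 7.58, 7.30 and 7.98 in air, at 6.69, 8.18, 6.24 and 8.01 with Iraqi sand, at 6.74, 7.56, 6.39 and 8.48 with silica, and at 8.84, 8.12, 6.85 and 7.97 with smoke. Smoke with Iraqi sand gave 6.85, 6.86, 10.30 and 11.20, and smoke with silica 8.24, 9.08, 11.86 and 9.45. All 4 smoke and silica rats lay above all 4 air rats, whereas smoke with Iraqi sand split into 2 rats within the range of air and 2 far above it. The difference was 2.25 ± 0.86 for smoke with silica against air, with a 95% interval from 0.46 to 4.03 (limma adjusted p = 0.155), 2.37 ± 0.86 for smoke within silica (limma adjusted p = 0.411), and 1.47 ± 0.49 averaged over particles, with an interval from 0.45 to 2.50 (limma adjusted p = 0.0745). Leaving out rat 402 or rat 404 gave it an adjusted p under 0.05 in the averaged comparison, with values from 0.0404 to 0.125 over the 24 rats left out in turn.

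Macrophage genes rose with smoke beside Spp1, and from rat to rat they went with it in some groups and not in others. The mean of 9 alveolar macrophage markers lay between 9.93 and 10.81 in the rats without smoke and between 10.68 and 11.69 with smoke, 7 of the 9 rose with smoke at a limma adjusted p under 0.05, against 6.39% of all genes called, and rat 604 had the highest mean of all, 11.69. In smoke with Iraqi sand the mean was 10.68 in rat 402 with Spp1 at 6.85, and 11.13 in rat 404 with Spp1 at 6.86. It was 11.01 in rat 405 with Spp1 at 10.30, and 11.13 in rat 406 with Spp1 at 11.20. The same rat was the highest for both in smoke alone (rat 201) and in smoke with silica (rat 604). In the air, Iraqi sand and silica groups rats 104, 304 and 501 had the highest means but not the highest Spp1. The defining markers stayed well above the dim end in every rat, with Cd68 from 9.86 to 11.75, Gpnmb from 11.54 to 13.73 and Lgals3 from 12.52 to 13.68. The part of these cells in the Spp1 levels was not tested.

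Tenascin C (Tnc), an adhesion-modulating protein of injury and of developing tissue, went the other way in most rats. It stood at 7.49, 7.67, 7.97 and 7.76 in air and at 6.09, 7.33, 7.22 and 6.97 with smoke, with no overlap and a difference of -0.82 ± 0.44 (limma adjusted p = 0.581). With smoke and Iraqi sand it stood at 7.27, 6.47, 6.80 and 9.29, where 3 rats lay below and rat 406 above every Iraqi sand rat, whose levels were 8.46, 7.93, 8.14 and 7.79. With smoke and silica it stood at 6.56, 7.15, 8.36 and 6.86. The averaged difference was -0.57 ± 0.26 (limma adjusted p = 0.172), and without rat 406 it was -0.78 with an adjusted p of 0.0192. Fibronectin (Fn1) differed by 0.23 ± 0.16 with smoke, Sparc, a collagen-binding glycoprotein, by -0.03 ± 0.06 with an interval from -0.15 to 0.08, and periostin (Postn) by 0.12 ± 0.14. Postn lay between 11.85 and 12.50 in 23 rats and at 10.66 in rat 302.

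The 2 signals differed in pattern. Ccn2, connective tissue growth factor, stood at 12.57, 12.85, 12.91 and 12.61 with Iraqi sand and at 13.26, 12.89, 13.22 and 13.65 with smoke and Iraqi sand, a difference of 0.52 ± 0.19 with 1 smoke rat inside the other range (limma adjusted p = 0.129). Averaged over particles it differed by 0.33 ± 0.11 (limma adjusted p = 0.0677), which came under 0.05 without rat 404 or rat 504. Tgfb1, the ligand itself, stood at 8.70, 8.70, 9.04 and 8.68 in air, at 8.98, 8.91, 9.01 and 9.01 with smoke, at 8.99, 9.43, 8.92 and 8.73 with Iraqi sand, and at 8.40, 8.63, 8.72 and 8.76 with both. Levels were thus higher in value with smoke alone, at 0.20 ± 0.12, and lower in value with smoke within Iraqi sand, at -0.39 ± 0.12 (limma adjusted p = 0.663 and 0.0927). Without rat 305 the latter came under 0.05. The interaction was -0.58 ± 0.17 and did not pass (limma adjusted p = 0.381, unadjusted p = 0.0025). Within smoke, all 4 rats given Iraqi sand and all 4 given silica lay below the 4 rats with smoke alone, a pattern that Col18a1 shared for silica. The Tgfb1 differences were -0.35 ± 0.12 and -0.34 ± 0.12 (limma adjusted p = 1.0 and 0.442). With silica alone Tgfb1 stood at 8.57, 8.66, 8.59 and 8.46, below every air rat, as did Lum and Dcn. With array quality weights, which gave rat 302 the smallest weight of 0.045, the interaction passed, at -0.53 (adjusted p = 0.0372), and under the other settings its adjusted p lay between 0.14 and 0.795. Averaged over particles Tgfb1 differed by -0.04 ± 0.07 with smoke, with an interval from -0.19 to 0.10.

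Of 20 measured genes of TGF-beta signalling, 1 rose and 1 fell with smoke averaged over particles, beside 6.39% of all genes called. In smoke with silica against air 1 rose and 1 fell beside 3.77%, and in smoke within Iraqi sand 1 rose beside 1.29%. All 3 counts are larger shares of the list than of all genes, by 1 or 2 genes. The gene that fell with smoke was Ltbp3, which holds latent TGF-beta in the matrix, by 0.22 on the log2 scale (SE 0.06, limma adjusted p = 0.0399), named after its value was seen. Tgfbr1, the type I receptor, rose with smoke by 0.33 ± 0.08 (limma adjusted p = 0.0146) and in smoke with silica by 0.56 ± 0.13 (limma adjusted p = 0.023). Its levels there were 11.49, 11.27, 11.25 and 11.10 against 10.81, 10.83, 10.71 and 10.54 in air, with no overlap. The averaged call was kept when each of the 24 rats was left out in turn, and the call against air ended without rats 104, 105, 602, 603 or 604. The call against air also ended when the probe sets of each gene were averaged. Acvrl1, an endothelial receptor of the family, fell in smoke with silica by 0.62 on the log2 scale (SE 0.15, limma adjusted p = 0.0261), a call that ended without rats 102, 103, 104, 603 or 604, or without rats 104, 302 and 604 together, with or without rat 406. That call also ended on the arrays of the groups compared. Beside Acvrl1, 2 of 7 endothelial markers fell in smoke with silica against air, against 3.77% of all genes called. The mean of the 7 ran from 11.42 to 11.80 against 11.88 to 12.21 in air, and their part in the result was not tested. Bmpr2, a type II receptor, rose in smoke within Iraqi sand by 1.22 ± 0.30 (limma adjusted p = 0.0426), with 11.06, 9.90, 9.39 and 10.69 against 9.42, 8.55, 9.13 and 9.04, a call kept in 9 of 24 fits that left out 1 rat, those without rats 104, 301, 305, 501, 405, 602, 603, 604 or 605, and ended without rats 104, 302 and 604 together, with or without rat 406. The Bmpr2 call also ended with array quality weights and on the arrays of the groups compared.

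Of 14 measured genes of collagen processing, which modify, fold and trim the chains, limma called 0 in the 15 comparisons, with at most 3 unadjusted in any. Of 40 other matrix genes, 1 rose and 7 fell with smoke averaged over particles, against 6.39% of all genes called. Lama3 and Lamb3, chains of the epithelial laminin that anchors cells to the basement membrane, fell by 0.38 and 0.40 on the log2 scale (SE 0.07 and 0.08, limma adjusted p = 0.0022 and 0.00418), and both calls were kept without each rat in turn. Lamb3 stood at 10.33, 10.20, 10.46 and 10.82 with smoke, at 10.40, 10.40, 10.42 and 10.56 with smoke and Iraqi sand, and at 10.19, 10.24, 10.57 and 10.61 with smoke and silica, against 10.52 to 11.23 in the 12 rats without smoke, so that the ranges overlapped slightly. Mfap2, a microfibril protein that accompanies fibrillin, fell by 0.51 (SE 0.12, limma adjusted p = 0.0159). Col17a1, a transmembrane collagen of basal epithelial cells, rose in smoke with Iraqi sand by 0.54 ± 0.12 and in smoke with silica by 0.47 ± 0.12 against air (limma adjusted p = 0.0231 and 0.0248), calls that ended without rats 102, 103 or 104 and without 4 and 2 of the treated rats. Iraqi sand alone already gave 6.83, 7.51, 7.22 and 7.25 against 6.61, 6.57, 6.66 and 6.80 in air. Smoke within Iraqi sand differed by -0.01 ± 0.12. Smoke in air and within silica differed by 0.35 ± 0.12 and 0.34 ± 0.12 (limma adjusted p = 0.22 and 0.365). Lamb2 fell in smoke with silica by 0.29 (SE 0.08, limma adjusted p = 0.039), a call that ended without any of the 8 rats compared other than rat 105. In smoke within Iraqi sand Lama3 and Lamb3 fell by 0.53 and 0.64 (SE 0.12 and 0.14, limma adjusted p = 0.0334 and 0.0264), and these calls ended without rats 301, 304, 404, 405 or 406 for Lama3 and 302, 402, 404, 405 or 406 for Lamb3, which also ended without rats 104, 302 and 604 together, with or without rat 406. Both calls also ended on the arrays of the groups compared, and that of Lama3 with centring and with a second quantile normalization. On the 19 arrays with an RNA integrity number, the averaged falls of Lama3 and Lamb3 were the only calls of the 8 named genes that were kept.

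The spread between rats of 1 group was the main feature of these genes. The standard deviation within groups had a median of 0.29 over the 38 genes against 0.153 over all genes, 35 of 38 were above the median gene, and 11 were above the 90th percentile. It was 1.31 for Spp1, 0.68 for Tnc, 0.61 for Lum and 0.60 for Col1a1, and lowest for Sparc and Lamc1 at 0.14 and 0.14. Most of the 38 genes lay on the same side of group mates in a number of rats, above in some and below in others. In rat 406 of smoke with Iraqi sand 34 of the 38 lay above the mean of the 3 group mates, against 51.3% of all genes, with a median of 0.40, and 7 were at least 2-fold higher, against 0.535% of all genes. They were Spp1 by 3.20, Tnc by 2.44, Loxl2 by 1.74, Loxl1 by 1.57, Col1a1 by 1.41, Lox by 1.18 and Lum by 1.00, while Dcn was 0.68 lower in value there, at 10.35 against 10.82, 10.82 and 11.43. In rat 604 of smoke with silica 34 of 38 lay above, against 55.6% of all genes, with a median of 0.46, and 6 were at least 2-fold higher, against 1.27% of all genes, namely Spp1 by 2.94, Lum by 1.58, Tnc by 1.51, Col1a1 by 1.43, Lox by 1.19 and Loxl1 by 1.12. Both rats thus shared Spp1, Tnc, Lum, Col1a1, Lox and Loxl1. In rat 302 of the Iraqi sand group 26 of 38 lay above, but so did 69.5% of all genes, a share no smaller than that of the matrix genes. Spp1 was higher by 1.21 and Fbln1 by 1.12, and Postn stood at a difference of -1.61. In that rat 1.65% of all genes were at least 2-fold higher and 1211 of the 14217 at least 2-fold lower. Rat 502 of the silica group had 33 of 38 above its mates, and rats 104 and 204 each had 30, with medians of 0.22, 0.36 and 0.09. The shares of all genes above in these rats were 49.4%, 53.4% and 49.2%. On the low side, rats 404, 501 and 605 each had 4 of 38 above their mates and rat 105 had 5. Rats 201 and 305 each had 7 and rat 102 had 8. The shares of all genes above in these low rats lay between 43.6% and 55.4%.

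**Figure D4:**
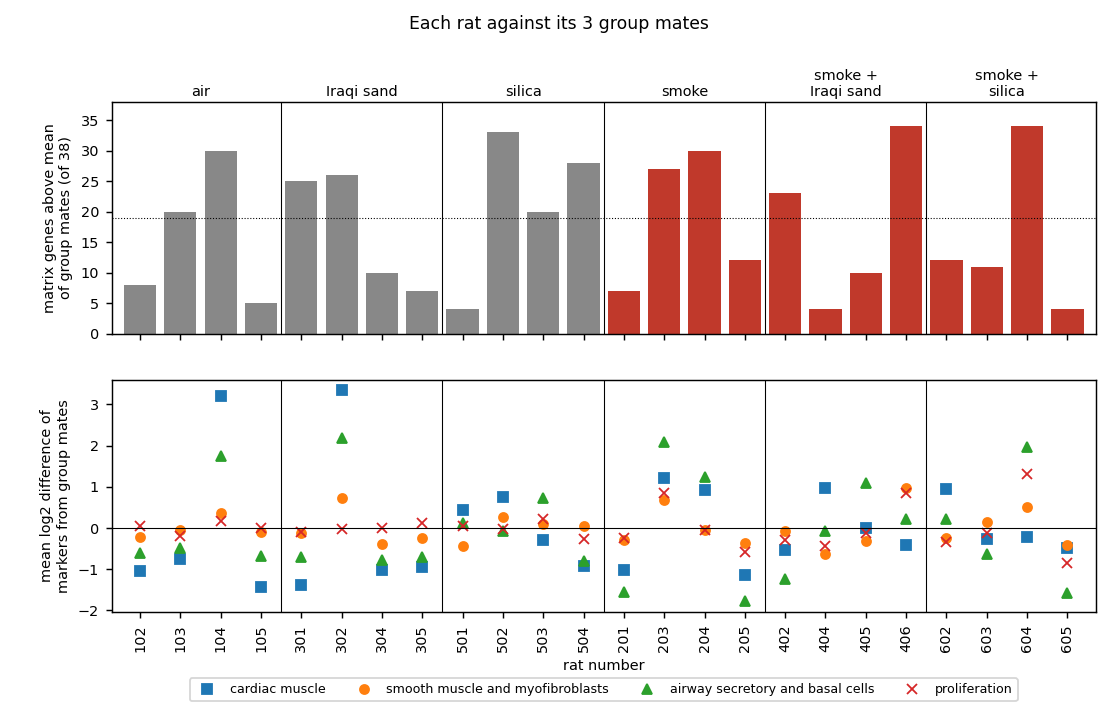
Upper panel: number of the 38 matrix genes above the mean of the 3 group mates in each rat (dotted line at 19), grey without smoke and red with smoke. Lower panel: mean log2 difference from group mates of marker lists of cardiac muscle (squares), smooth muscle and myofibroblasts (circles), airway secretory and basal cells (triangles) and proliferation (crosses); rats 406 and 604 reach 34, and rats 104 and 302 stand out for cardiac markers.

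Marker genes were also compared with group mates in rats 104, 302, 406 and 604. Rats 406 and 604 shared raised lists of smooth muscle and of proliferation. Of 10 markers of smooth muscle and myofibroblasts, 10 lay above group mates in rat 406 and 8 in rat 604, by 0.98 and 0.51 in the mean. All 7 proliferation markers lay above in both, by 0.85 and 1.31 in the mean. They differed in the airway list, at 0.21 in rat 406 and 1.97 in rat 604, and cardiac markers stood at -0.42 and -0.21. Raised lists of smooth muscle and of proliferation were not particular to these rats. In rat 203 of the smoke group they were higher by 0.68 and 0.86 in the mean. There the median of the 38 matrix genes was 0.10 above group mates, and 0 were at least 2-fold higher. In rats 104 and 302 the cardiac list stood out as given earlier, and the smooth muscle list was higher by 0.36 and 0.72. The 9 lung fibroblast markers were not raised alike, with mean differences of 0.13, 0.21, 0.07 and -0.08 in rats 104, 302, 406 and 604. Over all rats the defining markers ran from 9.80 to 11.14 for Pdgfra, from 7.00 to 8.46 for Pdgfrb and from 9.98 to 11.15 for Tcf21. Pdgfrb was highest in rat 302, at 8.46, and next in rat 104, at 8.28. Cartilage markers, which would mark a large airway, stayed between 5.10 and 5.47 for Col2a1 and between 5.83 and 6.18 for Acan. The part of these cell types in the matrix levels was not tested.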

How the data were processed

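The authors deposited log2 expression values for 24 arrays, which were made with RMA per the submitters' processing notes, with no version given in the sources used here. RMA gives all arrays the same distribution, so a shift shared by most genes would not be seen. Array medians lay between 7.26 and 7.32 and precision depends on the 24 arrays. Of 31099 rows, 57 controls were left out, and 20826 probe sets with exactly 1 symbol in the platform annotation gave 14217 genes, each by its brightest probe set. Groups and animal numbers came from the labels, and rats are separate animals.

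One model with 6 group means was fitted with limma 3.58.1 in R 4.3.3 (lmFit, eBayes), with 18 residual degrees of freedom. The 15 comparisons and the test for any difference were two-sided and adjusted by Benjamini-Hochberg over all genes. Code was tested on simulated data. The members and lists were chosen with earlier results of these data known. All members are named. Of the related lists, up to 4 called genes per comparison with the largest moderated t are named, and of the marker lists counts, means and the first 3 markers. Alternatives were trended robust variances in eBayes, a filter at the median gene level, probe sets of a gene averaged, fits on the compared arrays alone, array weights, centring, a second quantile normalization, RNA integrity as a covariate in 19 arrays, omission of rats 104, 302 and 604, and omission of each rat. The same 19 arrays without the covariate, and leaving out rats 104, 302, 406 and 604, were added after seeing the data. Promoter letters came from the RefSeq table of GRCr8, while the files name no build.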

Additional observations from a re-analysis of the deposited data

Results flagged for a closer look

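In 14 of 228 sets of 4 rats, 6.14%, the highest or lowest rat stood so far from its 3 mates that Dixon's 95% limit was passed, where chance flags about 1 in 20. Rat 104 in air was the highest for Col15a1 at 9.90, Lum at 9.58 and Tgfb1 at 9.04, and rat 103 for Sparc at 13.15. With Iraqi sand, rat 302 was the highest for Col18a1 at 8.70 and rat 301 for Dcn at 10.49, and rat 304 was the lowest for Eln at 9.05. With silica, rat 501 was the lowest for Eln at 8.25 and the highest for Col8a1 at 7.26. With smoke, rat 204 was the highest for Bgn at 10.60. With smoke and Iraqi sand, rat 406 was the highest for Col1a1 at 10.88 against 9.47 ± 0.06 (SD, n = 3) in its mates, and rat 404 the lowest for Col15a1 at 8.74. With smoke and silica, rat 604 was the highest for Col4a1 at 11.36 and Fbln5 at 9.28. No member differed between groups in its interaction at the threshold.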

How the results depend on the processing

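No paired analysis was possible because the groups share no animal numbers. No difference of a member that was called under any setting changed its sign. Under settings other than leaving out 1 rat, 150 counts of called genes stayed within 1.5 times of the count reported and 25 did not, and the cause was not tested. With array quality weights the counts of the 38 genes called were 10 for smoke averaged, 6 for smoke with silica, 2 for smoke in air, 2 for smoke with Iraqi sand, 1 each for silica within smoke, the Iraqi sand interaction and silica averaged, and 3 for any difference. Beside them, the shares of all genes called were 18.6%, 17.4%, 7.87%, 8.24%, 2.41%, 0.38%, 5.93% and 17.4%, in the same order. Without rats 104, 302, 406 and 604 they were 6 for smoke averaged, 3 for any difference, and 1 each for smoke in air (Col5a1), smoke within Iraqi sand (Tnc) and smoke with Iraqi sand (Col8a1), beside 7.42%, 3.76%, 2.44%, 0.661% and 1.69% of all genes. Without rats 104, 302 and 604 they were 3 for smoke averaged and 1 each for smoke with Iraqi sand and any difference, beside 8.31%, 2.64% and 3.84%. Genes at or above the median level, and centring, gave 2 for smoke averaged each (Col5a1 and Dcn), beside 784 of 7109 and 1158 of 14217 genes in all. On 19 arrays, with or without the RNA integrity number as a covariate, smoke averaged and smoke with silica gave 0 each, and with the covariate 1.48% and 0.844% of all genes were called. The mean of probe sets and only the arrays compared gave 0 for smoke with silica, and the latter gave 1 for silica averaged (Tgfb1), beside 2.19%. Leaving out 1 rat gave 0 to 3 for smoke averaged, 0 to 2 for any difference, 0 to 1 for smoke with silica, smoke in air (1 without rat 302), smoke within Iraqi sand (1 without rat 305) and silica averaged (1 without rat 302), and 0 to 0 for the others. Array number and the spread between rats limit what can be called, and the intervals given for single genes show which sizes of difference these rats allow.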
